A study of Mus musculus with 2 samples.

Results

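The gene that the knock-out inactivates, Park7, and 9 genes around it on mouse chromosome 4 were followed in microglia, the macrophages that live in brain tissue. The 10 genes, of 19537 in the count matrices, were listed by name: Angptl7, Srm, Clstn1, H6pd and Errfi1 lie at lower coordinates than Park7, and Dnajc11, Thap3, Atad3a and Vwa1 at higher ones. They were chosen by their UMI counts in these same libraries, so their differences between genotypes are a description and carry no test.

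The KO LPS group came from PARK7/DJ-1 KO mice of the gene-trap line B6;129P2-Park7 Gt(XE726)Byg/Mmucd, backcrossed to C57BL/6NCrl, and the WT LPS group from wildtype littermates of matched adult age. Mice of both groups received lipopolysaccharide (LPS), a bacterial cell wall component, and were sampled 24 h later, so no uninjected library enters the comparison. Each group was 1 library pooled from 2 mice, 1 female and 1 male. There were no replicate libraries: genotype cannot be told apart from library, no test was made, and all intervals (95%, exact) cover counting error only. CD11b+CD45int cells were sorted and run on Drop-seq, which reads the 3′ end of transcripts and marks each molecule with a unique molecular identifier (UMI). The position of the trap in Park7 is not given in the sources used here. The matrices hold no sequence, so the strain origin of the chromosome around Park7 in the KO mice was not analysed here.

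A barcode with at least 500 UMIs and 100 genes was taken as a cell, which gave 320 KO cells with 381305 UMIs and 1427 WT cells with 1989011 UMIs. The median was 963.5 UMIs per KO cell and 1065 per WT cell, and 0 cell barcodes were shared between the libraries. All 12 microglia markers had UMIs in both libraries, at 30540 UMIs per 1e6 UMIs (CPM) in KO cells and 15050 in WT cells. A list of 24 inflammatory genes, 23 of them in the matrices, stood at 875.9 CPM in KO cells and 11910 in WT cells. Among the lists of other cell types, choroid plexus stood furthest apart, at 2135 CPM with 5 of 6 genes detected in KO cells (Clic6 at 0) and 15.08 CPM with 5 of 6 in WT cells (Kl at 0). Endothelial markers stood at 91.79 CPM (63.94 to 127.7) in KO cells and 15.08 (10.18 to 21.53) in WT cells, and astrocyte markers at 466.8 (400.8 to 540.7) and 205.1 (185.7 to 226.0), with Aqp4 at 0 in both libraries. B lymphocyte markers were at 99.66 CPM (70.52 to 136.8) and 58.32 (48.19 to 69.95), with Cd79a at 0 in both. Neutrophil markers had 0 UMIs in KO cells, with an upper limit of 9.67 CPM, and 128 UMIs in WT cells (64.35 CPM, 53.69 to 76.52). The intervals of both libraries overlapped for the 6 remaining lists of other cell types, which lay between 0 and 102.3 CPM in KO cells and between 1.006 and 73.91 in WT cells.

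DJ-1, the product of Park7, is a small redox-sensitive protein with roles in the defence against oxidative stress and in mitochondrial health, and its loss causes a recessive early-onset form of Parkinson's disease. In microglia it has been studied as a regulator of inflammatory responses. The genes next to it serve varied functions, and what they share here is their place on the chromosome.

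The stretch before the start of Park7 is printed because Park7 is the gene the trap allele inactivates, and that of Angptl7 because this gene had UMIs in only 1 of the libraries. Both are the 250 bases before the start of the gene from RefSeq (GRCm38.p6), 5′ to 3′ on the strand of the gene. The Park7 stretch is chr4:150909922-150910171 (minus strand) and the Angptl7 stretch chr4:148500463-148500712 (minus strand). Capitals mark the letters GGGCGG, the core of the GC box.
Park7: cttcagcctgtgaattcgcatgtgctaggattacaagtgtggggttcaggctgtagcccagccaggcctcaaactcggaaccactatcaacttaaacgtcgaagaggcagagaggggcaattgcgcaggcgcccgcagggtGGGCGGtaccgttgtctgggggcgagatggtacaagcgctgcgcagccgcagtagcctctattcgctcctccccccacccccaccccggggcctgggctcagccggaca
Angptl7: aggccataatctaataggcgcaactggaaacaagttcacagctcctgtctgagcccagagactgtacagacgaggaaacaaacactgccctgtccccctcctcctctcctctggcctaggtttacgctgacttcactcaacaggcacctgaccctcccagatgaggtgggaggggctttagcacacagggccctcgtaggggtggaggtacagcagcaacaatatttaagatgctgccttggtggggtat
RefSeq windows, which add 50 bases after the start, were at hand for 4 of the 10 genes (Park7, Angptl7, Thap3 and Errfi1). The Park7 window had 64.0% G and C and 22 CpG, and the Angptl7 window 51.3% and 4 CpG, with medians of 52.7% and 7 over 32851 windows of the same length. Searched on both strands were the TATA box (TATAAA), the GC box core (GGGCGG), the AP-1 core (TGANTCA), a PU.1 site (GAGGAAGT), the NF-kB core and the antioxidant response element core. GGGCGG occurred 1 time in the Park7 window and 2 times in that of Thap3, and 35.7% of all windows hold it. None of the other motifs occurred in the 4 windows. They are held by 13.6% (TATA box), 7.81% (AP-1 core), 0.411% (NF-kB core), 3.2% (PU.1 site) and 3.04% (antioxidant response element core) of all windows.

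Park7 (chr4:150897133-150909921, GRCm38.p6, minus strand) had 1 UMI in the 320 KO cells and 323 UMIs in the 1427 WT cells. This was 2.62 CPM (0.0664 to 14.6) in KO cells and 162.4 CPM (145.2 to 181.1) in WT cells, a KO over WT ratio of 0.0161 (0.000408 to 0.0906). The libraries thus differed in the direction of their labels. The single KO UMI lay in 1 of the 38 cells with at least 3 UMIs of other cell types, and the remaining 282 cells held none. That limit is a count not scaled to depth, and the 282 cells held 304893 of the 381305 UMIs. The place of this UMI therefore does not separate other cell types from depth. Of the WT cells, 192 carried 1 Park7 UMI, 39 carried 2, 16 carried 3 and 1 carried 5. Ranked by log2 ratio, Park7 was number 32 from the bottom among the 9085 genes whose UMIs reached 20 in both libraries together. Of the 31 genes below it, 23 had 0 KO UMIs, so that the rank depends on the prior count of 0.5 added to the UMIs of both libraries.

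Among the 9 flanking genes, 5 were at least 2-fold higher in KO cells (Angptl7, Clstn1, Thap3, Errfi1 and Vwa1) and 4 at least 2-fold lower (Srm, Atad3a, Dnajc11 and H6pd). Of the 9085 genes, 13.5% were at least 2-fold higher and 15.3% at least 2-fold lower, but the genes were chosen with these ratios known, and nothing is read from their count against those shares. On the side of lower coordinates 3 were higher and 2 lower, and on the side of higher coordinates 2 were higher and 2 lower. The counting interval of the ratio left out 1 for 8 of the 9, with H6pd as the exception, and for 38.2% of the 9085 genes, from which again nothing is read.

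**Figure D1:**
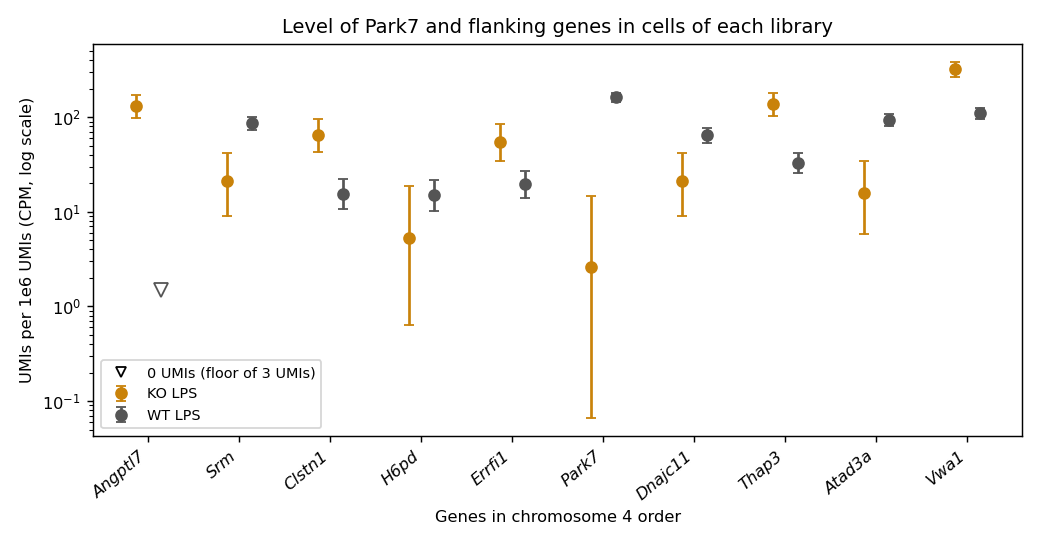
Level of each gene in UMIs per 1e6 UMIs (CPM, log scale) in KO cells (orange) and WT cells (grey), in chromosome order, with exact 95% counting intervals and 1 library per group; the open triangle is the floor of 3 UMIs for Angptl7 in WT cells, which had 0 UMIs. Park7 sits at 2.62 CPM in KO cells against 162.4 in WT cells, and the flanking genes lie on both sides of equality.

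Angptl7 (chr4:148495181-148500462, minus strand), which encodes a secreted angiopoietin-like protein, had 50 UMIs in KO cells and 0 in WT cells. The WT matrix did not list it and gives missing values (NA), and Angptl7 was the only one of the 10 genes that was NA in a matrix. Its level was 131.1 CPM (97.3 to 172.9) in KO cells. Against a floor of 3 UMIs in WT cells, which is 1.51 CPM, it was at least 86.9-fold higher, and the exact interval of the ratio, which adds the counting error of both libraries, began at 68.1. Its log2 ratio of 9.04, the highest of 9085 genes, depends on this prior count and is no bound; at the floor the log2 ratio is at least 6.44. The WT matrix was NA for 3036 genes, of which 547 had UMIs in KO cells, and Angptl7 was the only one with at least 20. The next in that list were Gm2956 and Mia with 5 UMIs each, genes named after their values were seen. In the other direction, the KO matrix was NA for 5616 genes, of which 2494 had UMIs in WT cells and 78 had at least 20.

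The Angptl7 UMIs were spread over 39 KO cells: 31 cells had 1 UMI, 5 had 2 and 3 had 3. Of the 50 UMIs, 7 lay in the 38 cells with UMIs of other cell types, and 43 remained without them. Barcodes of the KO library that were not called as cells held another 21 UMIs, and those of the WT library held 0. Angptl7 lies inside Mtor, the gene of a growth-regulating kinase on the opposite strand, with 0 shared exon bases in the GENCODE annotation. Mtor itself had 5 UMIs in KO cells and 33 in WT cells, and its ratio of 0.790 had an interval (0.241 to 2.04) that held 1. Whether counting used the strand is not given in the sources used here, so reads of overlapping genes cannot be told apart by it.

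Srm (chr4:148591513-148594619, plus strand), the gene of spermidine synthase, begins 91.0 kb after Angptl7 and went the other way. It had 8 UMIs (21.0 CPM, 9.06 to 41.3) in KO cells and 172 UMIs (86.5 CPM, 74.0 to 100.4) in WT cells, a ratio of 0.243 (0.103 to 0.489). Angptl7 and Srm thus differed between the libraries in opposite directions.

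Clstn1 (chr4:149585111-149648899, plus strand) encodes calsyntenin 1, a membrane protein of the cadherin family that links cargo to kinesin motors. It had 25 UMIs (65.6 CPM, 42.4 to 96.8) in KO cells and 31 UMIs (15.6 CPM, 10.6 to 22.1) in WT cells, so the ratio was 4.21 (2.38 to 7.36). Its exons share 1244 bases with Pik3cd, the leukocyte PI3 kinase gene on the opposite strand, so the counts of this pair are uncertain. They also share 148 bases with Gm70063, a long noncoding RNA on the opposite strand that was not in the matrices. Pik3cd had 47 UMIs (123.3 CPM) in KO cells and 130 UMIs (65.4 CPM) in WT cells, a ratio of 1.89 (1.32 to 2.65).

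H6pd (chr4:149979474-150009023, minus strand) encodes a hexose-6-phosphate dehydrogenase of the endoplasmic reticulum. It had 2 UMIs (5.25 CPM, 0.635 to 18.9) in KO cells and 30 UMIs (15.1 CPM, 10.2 to 21.5) in WT cells. The ratio of 0.348 had an interval from 0.0403 to 1.37, so at this depth no difference could be detected. Its exons share 252 bases with Gm69271, an opposite-strand long noncoding RNA that was not in the matrices.

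Errfi1 (chr4:150853796-150868889, plus strand), a feedback inhibitor of the epidermal growth factor receptor, is the listed gene nearest to Park7. Its end lies 28.2 kb from that of Park7, and both genes read towards each other. Errfi1 had 21 UMIs (55.1 CPM, 34.1 to 84.2) in KO cells and 39 UMIs (19.6 CPM, 13.9 to 26.8) in WT cells. The ratio of 2.81 (1.57 to 4.89) was opposite in direction to that of Park7. Errfi1 shares 484 exon bases with Gm69161, a long noncoding RNA of the opposite strand that the matrices lack, so its counts too are uncertain. On the other flank, 10.2 kb from Park7, Tnfrsf9, an inducible receptor of T cell costimulation, was NA in the KO matrix and had 1 UMI in WT cells, too few to compare.

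At higher coordinates, Dnajc11 (chr4:151933720-151981959, plus strand) and Thap3 (chr4:151982638-151988986, minus strand) end 678 bases apart. Dnajc11 encodes a mitochondrial J-domain protein and Thap3 a THAP-type zinc finger protein. Dnajc11 had 8 UMIs (21.0 CPM, 9.06 to 41.3) in KO cells and 128 UMIs (64.3 CPM, 53.7 to 76.5) in WT cells, with a ratio of 0.326 (0.138 to 0.662). Thap3 had 53 UMIs (139.0 CPM, 104.1 to 181.8) in KO cells and 66 UMIs (33.2 CPM, 25.7 to 42.2) in WT cells, with a ratio of 4.19 (2.86 to 6.11). This pair with facing 3′ ends therefore had ratios on opposite sides of 1.

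Atad3a and Vwa1, on the same strand, also differed in opposite directions. Atad3a (chr4:155740640-155761124, minus strand), which encodes an AAA ATPase of the mitochondrial inner membrane, had 6 UMIs (15.7 CPM, 5.78 to 34.2) in KO cells and 185 UMIs (93.0 CPM, 80.1 to 107.4) in WT cells. Its ratio was 0.169 (0.0613 to 0.375). Vwa1 (chr4:155768495-155774693, minus strand), the gene of an extracellular matrix protein with a von Willebrand factor A domain, lies 7.4 kb further on. It had 123 UMIs (322.6 CPM, 268.1 to 384.9) in KO cells and 218 UMIs (109.6 CPM, 95.5 to 125.2) in WT cells, a ratio of 2.94 (2.34 to 3.69). Both genes lie 4.8 to 4.9 Mb from Park7, the furthest of the 10. Atad3aos, an antisense transcript that shares exon bases with Atad3a and Vwa1, was not in the matrices.

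The inflammatory, choroid plexus, endothelial, astrocyte, B lymphocyte and neutrophil lists differed between the same libraries, as given above. Without the 38 KO cells and 85 WT cells that had at least 3 UMIs of other cell types, the log2 ratio was 1.89 for Clstn1, 2.02 for Thap3, 1.22 for Errfi1 and 1.44 for Vwa1. For the lower genes it was then -1.75 for Srm, -2.62 for Atad3a, -1.45 for Dnajc11 and -1.57 for H6pd, so all 9 flanking genes had the same direction without these cells. The limit of 3 UMIs is not scaled to depth, so this step does not separate other cell types from deep cells. Astrocyte markers had UMIs in 29.1% of KO cells, and cells below the limit stayed in.

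The genes were next set against all others of the region. Within 5 Mb of the start of Park7 lay 143 genes of the matrices, of which 123 had UMIs in cells and 78 reached 20 UMIs. Of these 78, 19 (24.4%) were at least 2-fold lower and 14 (17.9%) at least 2-fold higher in KO cells, against 15.3% and 13.5% of all 9085 genes. Park7 and the 9 chosen genes are among them. When the scale was set by the median ratio over abundant genes instead of total UMIs, the split became 15 lower and 21 higher, against 12.9% and 16.4% of all genes, and the median log2 ratio of all 9085 genes moved from 0.03 to 0.16. The directions of the 10 genes were the same on both scales. Without the 10 genes, 68 remained, with 14 lower (20.6%), 9 higher (13.2%), a median log2 ratio of -0.11 and an SD of 1.12. Over all genes the median was 0.03 and the SD 1.17. On chromosome 4 beyond 5 Mb, 67 of 483 genes were lower and 63 higher.

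**Figure D2:**
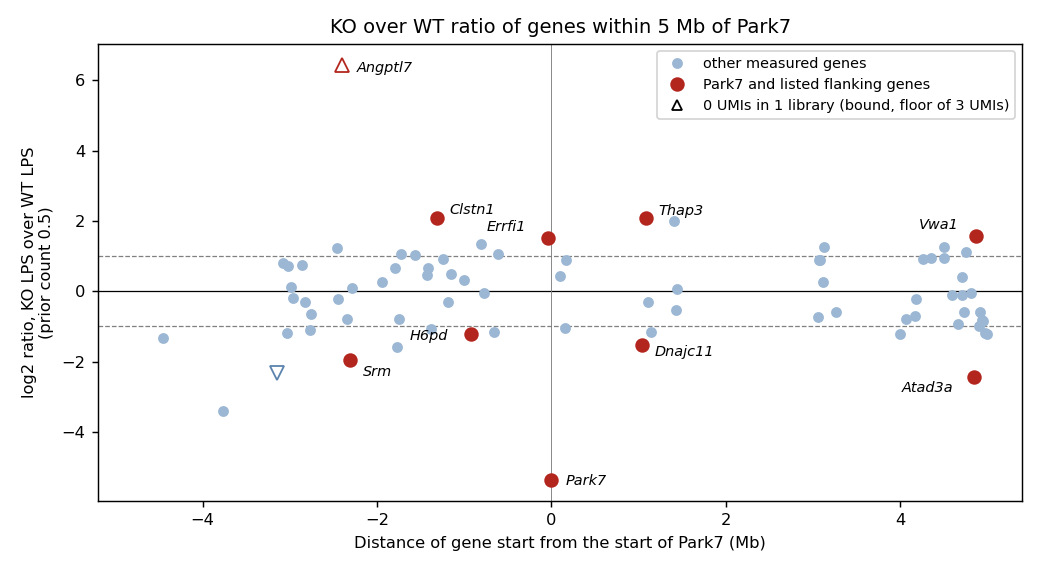
Log2 ratio of KO over WT (prior count of 0.5) against the distance of the gene start from that of Park7 in Mb, for 78 genes with at least 20 UMIs; red points are Park7 and the listed genes, blue points the other genes, dashed lines a 2-fold difference. Open triangles are bounds at a floor of 3 UMIs for Angptl7 (at least 6.44, 0 WT UMIs) and Gm13157 (at most -2.32, 0 KO UMIs). Park7 stands at -5.37, while genes of both directions lie along the whole window.

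Close to Park7 the directions were also mixed. Within 1 Mb, 10 genes were measured, of which Park7, H6pd, Eno1 and Vamp3 were at least 2-fold lower and Errfi1, Rere and Gpr157 at least 2-fold higher. Of all 9085 genes, 15.3% were at least 2-fold lower and 13.5% at least 2-fold higher. Park7, H6pd and Errfi1 are listed genes, chosen with their values known, so nothing is read from these counts against those shares. Eno1, a glycolytic enzyme, had 40 UMIs (104.9 CPM) in KO cells and 471 UMIs (236.8 CPM) in WT cells, a ratio of 0.443 (0.312 to 0.612). Rere, a transcriptional corepressor next to Eno1, had 80 UMIs (209.8 CPM) and 203 UMIs (102.1 CPM), a ratio of 2.06 (1.57 to 2.67). Vamp3, a vesicle fusion protein, had 10 and 113 UMIs with a ratio of 0.462 (0.215 to 0.881). Gpr157, an orphan receptor, had 8 and 17 UMIs, and its interval (0.917 to 6.002) held 1. Slc2a5, the fructose transporter, and Per3, a circadian gene, had ratios of 0.913 (0.345 to 2.06) and 1.23 (0.300 to 3.76). Camta1, a calmodulin-binding transcription factor, had a ratio of 1.79 (0.845 to 3.53).

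The same held for the measured genes a little further out. On the lower side Spsb1 (1.23, 0.800 to 1.82), Slc25a33 (1.35, 0.535 to 2.99) and Tmem201 (0.711, 0.136 to 2.37) had ratios whose intervals held 1. On the higher side Rpl22, a ribosomal protein, had 149 UMIs in KO cells and 1135 in WT cells with a ratio of 0.685 (0.573 to 0.813). Icmt, a carboxyl methyltransferase, had 9 and 12 UMIs and a ratio of 3.91 (1.46 to 10.1). Nol9, a nucleolar kinase, had 10 and 121 UMIs and a ratio of 0.431 (0.202 to 0.820). The ratios of Klhl21 and Chd5 were 0.711 and 0.920, each from 3 UMIs in KO cells, with intervals that held 1.

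Of the 35 genes of the window with at least 100 UMIs, Park7, Gm13139 and Atad3a had the lowest ratios and Thap3, Vwa1 and 2010015L04Rik the highest. Gm13139, a predicted gene 3.77 Mb from Park7, had 2 UMIs in KO cells and 139 in WT cells, a ratio of 0.0751 (0.00900 to 0.276). 2010015L04Rik had 41 and 90 UMIs, a ratio of 2.38 (1.60 to 3.47). At a fold of 4, 4 of the 78 genes were lower (Park7, Gm13157, Gm13139 and Atad3a) and 3 higher (Angptl7, Clstn1 and Thap3), against 4.36% and 2.26% of all genes. Of these 7, 5 belong to the 10 genes chosen for their values. Gm13157, named after its values were seen, had 0 UMIs in KO cells and 78 in WT cells.

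Among 4468 other genes with at least 100 UMIs, the 5 with the nearest log2 ratio over these 2 libraries were Il1b, 1600029D21Rik, AB124611, Ms4a6c and Cxcl13, none of them on chromosome 4. Of these, 1600029D21Rik, AB124611 and Cxcl13 had 0 KO UMIs, so their values rest on the prior count and their WT UMIs (109, 110 and 103) and do not show a likeness to Park7. Il1b, the gene of the cytokine interleukin-1 beta, had 1 UMI in KO cells and 322 in WT cells. Its UMIs lay in 116 WT cells, while those of Park7 lay in 248.

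Shares of cells with a UMI depend on depth and on free RNA in the droplets, so every cell was also thinned to 500 UMIs. As background, the expected share was computed for 500 UMIs drawn from barcodes with 100 UMIs or fewer. Their content is called free RNA here, though whether some hold a small cell was not tested. They were 9236 barcodes with 198723 UMIs in the KO library and 4270 with 315748 UMIs in the WT library. Park7 was found in 17.4% (15.5 to 19.4) of WT cells and in 6.17% (4.98 to 7.54) after thinning, against 4.64% by this background. Its level in free RNA of that library was 95.0 CPM (64.1 to 135.6), below that in cells. In KO cells, which should lack the intact gene, the share was 0.312% (0.00791 to 1.73) before and after thinning, against 0.502% from free RNA. That background rested on 2 UMIs (10.1 CPM, 1.22 to 36.4), so the single KO UMI did not stand above it.

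The share of Angptl7 in KO cells was 12.2% (8.81 to 16.3), 7.81% (5.12 to 11.3) after thinning and 3.22% from free RNA. A UMI was found in 0 of 1427 WT cells, which by the floor of 3 counts allows a share of cells with a UMI of up to 0.210%, with an exact upper limit of 0.258%. Angptl7 was the only one of the 10 genes whose interval lay above the free-RNA share in KO cells. That free-RNA share rested on 13 UMIs (65.4 CPM, 34.8 to 111.9), and its interval overlapped that of the level in cells. In WT cells the interval lay above the free-RNA share for Park7, Clstn1, Srm and Dnajc11, but the free-RNA share has counting error too. By level, the intervals of cells and free RNA overlapped for Clstn1, at 2 free UMIs (6.33 CPM, 0.767 to 22.9), and for Dnajc11, at 13 (41.2 CPM, 21.9 to 70.4), and were apart for Park7 and Srm. Srm, for one, was in 3.92% (2.98 to 5.07) of thinned WT cells against 1.10% from free RNA.

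For Vwa1 the share of cells did not exceed the background in either library. It was 14.7% (11.0 to 19.0) of thinned KO cells against 15.1% from free RNA, and 5.19% (4.09 to 6.47) of WT cells against 6.29%. The level of Vwa1 in free RNA was 327.1 CPM (252.4 to 416.9) in the KO library and 129.9 CPM (93.2 to 176.2) in the WT library, so the libraries differed in droplets without a cell as well. Thap3 was in 8.12% (5.38 to 11.7) of thinned KO cells against 5.39% from free RNA, and in 1.47% (0.913 to 2.24) against 1.26% in WT cells. Shares of Errfi1, H6pd and Atad3a lay at the background in both libraries within their intervals.

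**Figure D3:**
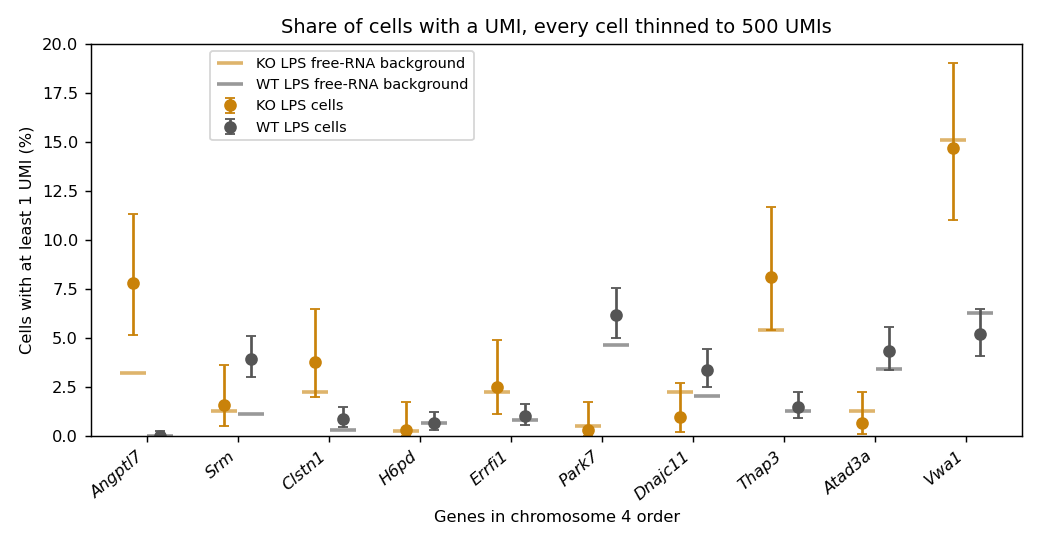
Share of cells with at least 1 UMI of each gene (%), every cell thinned to 500 UMIs, with exact 95% intervals, in KO cells (orange points) and WT cells (grey points); horizontal dashes give the share that free RNA of the same library would give. Angptl7 in KO cells, at 7.81%, lies above its dash at 3.22%, while Vwa1 lies at its dash in both libraries.

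The libraries differ in inflammatory genes, so the WT cells were divided into tertiles by the share of their UMIs in the inflammatory list. That list stood at 3104, 7202 and 23590 CPM in the lowest, middle and highest tertile. Park7 stood at 145.0 CPM (115.1 to 180.2), 170.9 CPM (142.0 to 203.9) and 167.5 CPM (138.7 to 200.4), with overlapping intervals. The ratio of the highest over the lowest tertile was 1.16 (0.864 to 1.55), an interval that held 1. Angptl7 had 0 UMIs in all 3 tertiles.

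Among the flanking genes, the interval of this ratio left out 1 for Dnajc11 and Atad3a. The ratio between tertiles was computed for the listed genes only, so no share of all genes stands beside these calls. Nothing is read from their number. Dnajc11 went from 43.0 CPM (27.5 to 63.9) in the lowest tertile to 76.0 CPM (57.1 to 99.2) in the highest, a ratio of 1.77 (1.08 to 2.99). Atad3a went from 71.6 CPM (51.2 to 97.5) to 115.4 CPM (91.8 to 143.2), a ratio of 1.61 (1.09 to 2.42). For Srm, Clstn1, Thap3, Errfi1, H6pd and Vwa1 the interval of this ratio held 1. The tertiles are cells of 1 library with median depths of 920.5, 1133 and 1155.5 UMIs, and no test was made between them.

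Set against only the lowest tertile of WT cells, KO cells kept the direction of all 10 genes. Angptl7, with 0 UMIs in that tertile, was at least 24.4-fold higher against a floor of 3 UMIs (5.37 CPM). The log2 ratio was -5.21 for Park7, 1.83 for Clstn1, 1.80 for Thap3, 1.45 for Errfi1 and 1.30 for Vwa1. For the lower genes it was -1.74 for Srm, -2.09 for Atad3a, -0.98 for Dnajc11 and -1.77 for H6pd. These KO cells still had a lower inflammatory level, at 875.9 CPM, than the lowest tertile of WT cells.

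**Figure D4:**
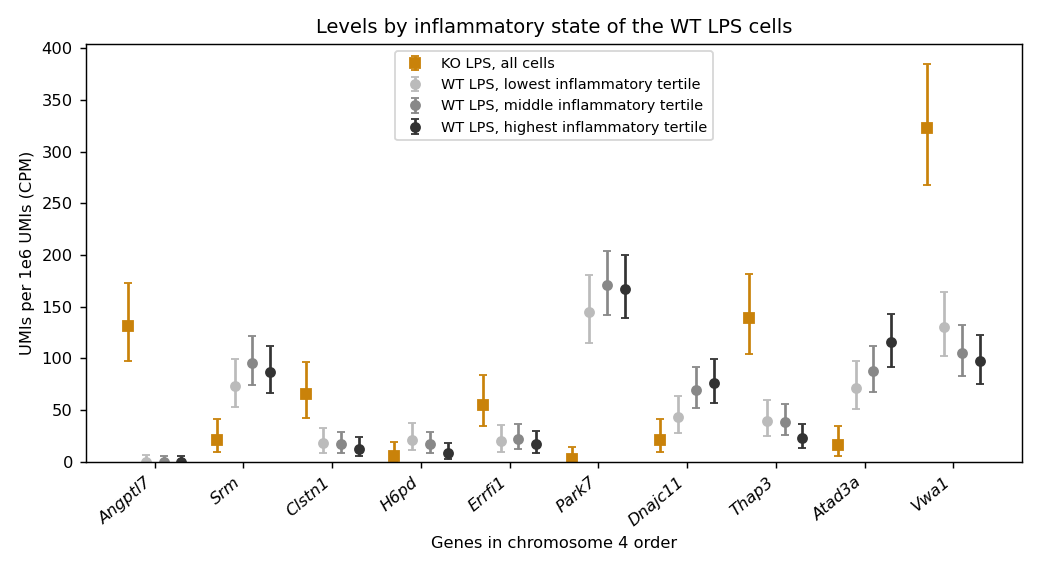
Level of each gene (CPM) in all KO cells (orange squares) and in the lowest, middle and highest tertile of WT cells by inflammatory UMIs (light to dark grey circles), with exact 95% counting intervals. Park7 lies between 145.0 and 170.9 CPM in the WT tertiles, and the KO levels of Angptl7, Clstn1, Errfi1, Thap3 and Vwa1 lie above those of every tertile.

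Since each library pooled a female and a male mouse, cells were also parted by Xist, the transcript of the inactive X chromosome in females. Xist UMIs were found in 209 KO cells and 645 WT cells, of which 9 and 80 also held UMIs of Y-linked genes, so a cell with Xist is not a sure female cell. In all cells with Xist, Park7 had 1 and 155 UMIs, a ratio of 0.0248 (0.000625 to 0.140). Angptl7 had 44 UMIs (161.9 CPM, 117.6 to 217.3) in KO cells and 0 in WT cells. The other 8 genes had the same direction as in all cells, with ratios of 4.62 for Clstn1, 4.28 for Thap3, 3.85 for Errfi1, 2.98 for Vwa1, 0.293 for Srm, 0.182 for Atad3a, 0.197 for Dnajc11 and 0.481 for H6pd.

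Cells with no Xist UMI, a comparison added after the data were seen, were 111 of the KO library and 782 of the WT library. They can be male cells or female cells whose Xist was missed. Park7 had 0 UMIs in KO cells and 168 in WT cells, and Angptl7 had 6 UMIs (54.8 CPM, 20.1 to 119.2) and 0. Vwa1 kept a ratio of 3.15 (2.15 to 4.55), Thap3 of 3.73 (1.79 to 7.37) and Clstn1 of 3.77 (1.31 to 9.68). Errfi1, with 2 UMIs in KO cells, had a ratio of 0.861, and its wide interval (0.0976 to 3.55) held both 1 and the ratio in all cells. Dnajc11 had a ratio of 0.689 (0.181 to 1.88) there. Cells that had Y-linked UMIs but lacked Xist numbered 12 in the KO library, with 14445 UMIs in all, too few for 8 of the 10 genes. In these cells Vwa1 had 9 UMIs against 39 in WT cells (ratio 4.91, 2.09 to 10.3) and Thap3 3 against 10 (ratio 6.39, 1.13 to 24.8).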

How the data were processed

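Per the labels, 2 Drop-seq libraries of sorted brain microglia were measured. For each, the authors deposited raw UMI counts of each gene in 9999 barcodes, most of them not cells, without normalization. The submitters' processing notes name bcl2fastq 2.0, STAR and the builds mm9 and mm10, with no role given. The counting program, its version and its use of strand are not given in the sources used here. Genes listed by only 1 matrix are given as missing values (NA) in the other. The KO matrix was NA for 5616 genes and the WT matrix for 3036, and these were read as 0. No gene listed by the KO matrix had 0 UMIs over all barcodes, while 435 listed by the WT matrix did. The number of columns left unassigned was 0.

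The study told cells from empty droplets with DropletUtils, which was not used here. Here cells were barcodes with at least 500 UMIs and 100 genes, and doublets were left in. UMIs were summed over cells and divided by the library's cell UMIs (CPM). Intervals are exact: Poisson for levels, conditional binomial for ratios, Clopper-Pearson for shares. The log2 ratio used a prior count of 0.5, and counts over many genes took genes with at least 20 UMIs. A count of 0 was set to a floor of 3 UMIs for a fold, or 7.87 CPM (KO) and 1.51 CPM (WT). The 3 counts are 0.938% of KO cells and 0.210% of WT cells. Calculations used Python 3.11.15, numpy 2.4.6, scipy 1.17.1 and pandas 2.3.3 and were tested on simulated data.

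Positions and promoter windows are RefSeq on GRCm38.p6, matched by symbol for 16594 genes and by older symbol for 1144, and 1799 genes had no match. Overlaps and strands came from GENCODE vM39 by gene name. Named were the 10 listed genes, the 10 nearest measured genes on each side, the 3 lowest and 3 highest ratios in the window with at least 100 UMIs, overlapping genes, and the 5 genes nearest to Park7 in log2 ratio. The genes and lists were chosen with earlier results of these data known. The alternatives changed the cell filter, the scale, the prior count, the cells used, the minimum of UMIs, the fold and the window.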

Additional observations from a re-analysis of the deposited data

Results flagged for a closer look

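Barcodes that were not called as cells, 9679 of the KO library (303433 UMIs) and 8572 of the WT library (1074784 UMIs), enter none of the comparisons of cells. In them the 5 genes that were higher in KO cells stood above their level in the control library, which is what drew attention to them. The ratio in these barcodes was not computed over all genes, so no share stands beside it. The genes were chosen from the same libraries, so their shared direction is not separate support. Angptl7 stood at 69.2 CPM in KO barcodes and 0 in WT barcodes. Clstn1 stood at 59.3 CPM against 9.30, a ratio of 6.38 (2.79 to 15.5). Thap3 stood at 92.3 CPM against 40.01, a ratio of 2.31 (1.38 to 3.80). Errfi1 stood at 59.3 CPM against 21.4, a ratio of 2.77 (1.41 to 5.37). Vwa1 stood at 299.9 CPM against 135.8, a ratio of 2.21 (1.68 to 2.89). Among the genes lower in KO cells, the interval of this ratio held 1 for Srm, Dnajc11 and H6pd but not for Atad3a (0.469, 0.206 to 0.943). For Park7 it was 0.0843 (0.0101 to 0.314). These barcodes hold free RNA and cells below the limit, and their parts were not tested.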

How the results depend on the processing

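No library could be left out, since each group is 1 library, and no paired analysis was possible because the result comes from no test and the groups share only 1 number. Leaving out cell barcodes found in both libraries gave no value because none was shared, and leaving out the cell richest in the gene was not run for Park7, whose KO count is then 0. Over 14 alternatives the Park7 log2 ratio ranged from -6.63 to -2.19, the last in the 12 KO cells that had Y-linked UMIs but lacked Xist. In those cells Srm (0.57) and Dnajc11 (1.24) turned in sign, each on 1 UMI. Park7, Angptl7, Clstn1, Atad3a and H6pd had 0 UMIs in those KO cells, so their values, such as 1.24 for H6pd and for Clstn1, depend on the prior count. In cells with no Xist UMI, a setting added after the data were seen, Errfi1 came to 0.07 on 2 UMIs, with a ratio under 1 before the prior count, and Dnajc11 to -0.38. Under the other alternatives, 12 for Park7 and 13 for each flanking gene, all 10 genes had the sign given in the report. H6pd fell short of 2-fold lower with a prior count of 1 (-0.99), in cells with Xist (-0.78) and after thinning (-0.51). Dnajc11 did so with all barcodes (-0.98) and against the lowest WT tertile (-0.98). The counts of genes within 5 Mb (19 lower and 14 higher of 78) became 11 and 15 of 83 with all barcodes (12.9% and 13.8% of all genes there), 18 and 9 of 56 in cells with Xist (16.6% and 13.3%), and 11 and 10 of 51 with no Xist (16.9% and 13.5%). In cells with Y-linked UMIs they were 7 and 6 of 24 (28.1% and 21.6%), and against the lowest WT tertile 7 and 7 of 46 (11.6% and 10.6%). They were 13 and 8 of 47 after thinning (16.1% and 12.3%), 21 and 32 of 123 with no minimum of UMIs (12.2% and 24.5%), and 11 and 5 of 35 with at least 100 UMIs (15.1% and 9.02%). At a fold of 1.5 they were 31 and 26 (25.8% and 26.2%), and at a fold of 4 they were 4 and 3 (4.36% and 2.26%). Within 1 Mb they were 4 and 3 of 10, and within 2 Mb 8 and 8 of 31 (15.3% and 13.5% of all genes). These counts still include Park7 and chosen flanking genes, so nothing is read from them against the shares of all genes. Without the 10 genes, the main counts were 14 and 9 of 68 (20.6% and 13.2%), and the other settings were not repeated without them. The median log2 ratio in the window was -0.11 in the main setting. It ranged from -0.59 with at least 100 UMIs per gene (35 genes) to 0.57 in cells with Y-linked UMIs (24 genes). The share of WT cells with Park7 was 6.17% after thinning, 13.7% with at least 300 UMIs per cell and 25.4% with at least 1000. The cause was not tested beyond what fewer genes, cells or UMIs bring by construction.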
